A study of Mus musculus with 78 samples.

Results

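Heart and gastrocnemius, the fast calf muscle, were compared within each of 10 old control mice, and the same paired comparison in 9 young control mice served as the reference for which tissue differences were blurred, lost or gained in old animals. The members were 20 of the 78 libraries of the series: for each old control mouse 1 heart and 1 muscle library, matched by the library name without its tissue letter. The mice were C57BL/6J from the National Institute on Aging colony, and old controls (5 females and 5 males) were 26 months old when tissues were taken. Young controls (4 females and 5 males, 18 libraries) were 7 months old. Controls received isotonic saline in place of elamipretide (ELAM, a mitochondria-targeted peptide), and the 20 ELAM mice (40 libraries) had been given 3 mg/kg/day for 8 weeks from subcutaneous pumps, starting at 5 or 24 months. Each library held polyA mRNA from 1 flash-frozen piece of tissue of 1 animal. The hour of collection and the heart chamber sampled are not given in the sources used here.

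Heart and skeletal muscle are both striated, yet they use different gene copies for the same parts: the heart contracts with alpha myosin heavy chain and cardiac troponins and releases calcium through RYR2, whereas fast muscle uses Myh1, Myh2 and Myh4, fast troponins and RYR1. Heart cells are paced by their own channels and burn mainly fatty acids, whereas muscle fibres are driven by motor nerves, and fibres that lose their nerve turn on acetylcholine receptor subunits, Myog, Hdac4 and Gadd45a. Both tissues hold a molecular clock in which CLOCK and ARNTL drive the Per, Cry, Nr1d and Dbp genes, whose products feed back on it.

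Old libraries held 27922884 to 43781815 counts and young ones 28097399 to 53164074. Myh6, the heart myosin, had 663818 to 934162 raw counts in old hearts and 54 to 2508 in old muscles. Actn3, the alpha-actinin of fast fibres, had 292806 to 579398 in old muscles and 4 to 354 in old hearts, so both tissue labels matched their markers in all 20 old libraries. Each library was scaled to CPM by its total counts for this. Actn3 in heart, as a percent of the level in the same animal's muscle, was 0.00125 to 0.110 in old mice. In young mice it was 0.000813 to 0.875. The highest value of each age belonged to 1 animal, old male replicate 2 and young female replicate 3, which stand apart from the others. A call on the difference between ages that is lost without them is given with a value without 1 or both. Labelled sex matched the sex-linked genes in all 38 control libraries, whereas 2 of the 20 ELAM mice (young female replicate 4 and young male replicate 5) went against their label in both tissues. Bulk libraries cannot tell apart fewer cells of a type from less RNA per cell.

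Of 18397 genes tested, 4007 (21.8%) were higher in old heart and 2699 (14.7%) were higher in old muscle (edgeR quasi-likelihood F test with animal as the block, Benjamini-Hochberg adjusted p under 0.05 and a log2 fold change of at least 1). Young controls had 3963 (21.5%) and 2796 (15.2%). Among genes with a mean of at least 8 log2 CPM (counts scaled to library size), the largest differences in old mice were mostly in contractile and calcium-handling genes. On the log2 scale, heart over muscle, the 8 leading heart genes were Mybpc3 (15.13), Dsp (13.53), Tnni3 (12.42), Myh6 (11.36), Ryr2 (10.52), Mylk3 (10.06), Pln (10.03) and Tnnt2 (9.99). The 8 leading muscle genes were Myh4 (-16.89), Myh1 (-16.04), Ampd1 (-15.58), Atp2a1 (-14.89), Myh2 (-14.87), Actn3 (-14.38), Tnnt3 (-13.99) and Pvalb (-13.31). None of these 16 passed the test of a difference between ages.

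Each animal was also given 1 number for its whole profile, the tissue distance: the median over tested genes of the absolute log2 ratio of heart to muscle (pseudocount 1). Tissue distance in old mice was 0.644 at its lowest, 0.786 at the median and 0.911 at its highest, with a mean of 0.775 ± 0.085 (SD, n = 10). In young mice it was 0.667, 0.799 and 0.932, with a mean of 0.794 ± 0.087 (SD, n = 9). The groups overlapped almost entirely, and the difference in means of -0.0188 was within the spread between animals (two-sided exact permutation test over 92378 assignments, p = 0.636). Measured as 1 minus the Spearman correlation, the difference was -0.0029 (exact permutation p = 0.532). The share of counts on mitochondrial DNA was 19.01 to 22.4% in old hearts and 6.47 to 9.70% in old muscles, and the gap of 12.2 ± 1.13 percentage points (SD, n = 10) compared with 12.7 ± 1.64 in young mice (SD, n = 9, exact permutation p = 0.392). Both differences were smaller than the spread between animals, and neither test shows that the ages are alike.

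**Figure D1:**
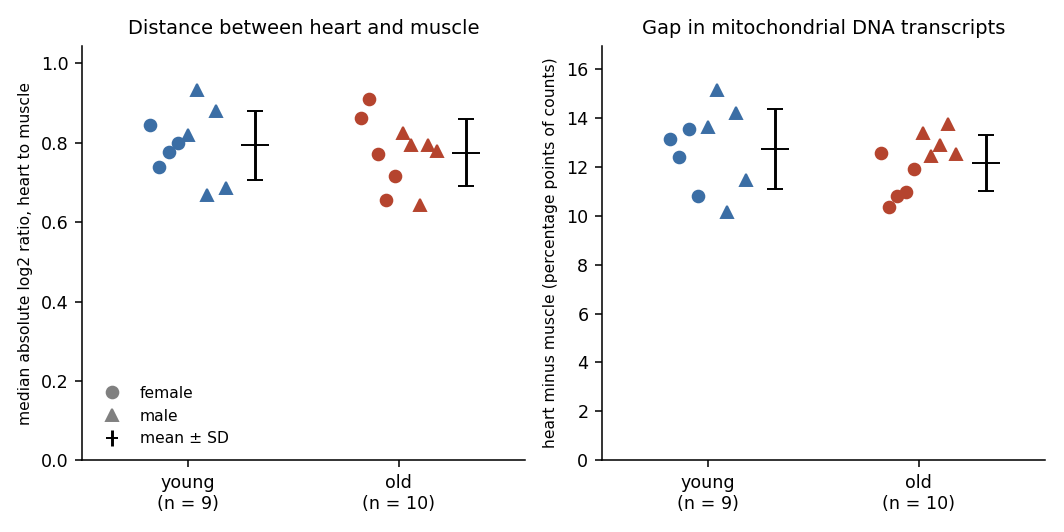
Tissue distance (left, median absolute log2 ratio of heart to muscle) and the heart minus muscle gap in mitochondrial DNA share (right, percentage points) of each control mouse, with circles for females, triangles for males, and mean ± SD beside the points. Old mice (n = 10) span 0.644 to 0.911 and young mice (n = 9) span 0.667 to 0.932 on the left, so the ages overlap.

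Gene by gene, 353 genes (1.92%) had a tissue contrast that differed between old and young controls at an adjusted p under 0.05: 160 above 0 (0.870%), meaning that heart gained on muscle with age, and 193 below 0 (1.05%). With TMM in place of RLE scaling, 139 lay above and 275 below 0. At an unadjusted p under 0.05 there were 2631, and DESeq2 called 680. Without young female replicate 3 and old male replicate 2, 178 genes were called, of which 166 were among the 353. Of the tissue contrasts themselves, 5757 were called in both ages, 949 in old only and 1002 in young only, but a call in 1 age is no difference: just 38 of the 949 and 56 of the 1002 passed the test of the difference. Per-animal log2 ratios that did not overlap between ages were found for 29 genes (0.158%).

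By their contrasts at both ages, the 353 genes were sorted into 85 blurred (called at both ages, smaller in old), 34 sharpened (larger in old), 56 lost (called in young mice and not in old ones), 38 gained (called in old mice and not in young ones), 1 turned to the other tissue, and 139 below the fold at both ages. The median absolute contrast of blurred genes was 3.03 in young mice and 2.26 in old ones on the log2 scale. For lost genes it was 1.33 in young and 0.64 in old mice, for gained genes 0.62 and 1.36, and for sharpened genes 1.62 and 2.79. The classes describe the genes that were called and their medians follow from the sorting. A call needs a log2 fold change of at least 1, so a lost or gained contrast may be present at both ages in the same direction.

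**Figure D2:**
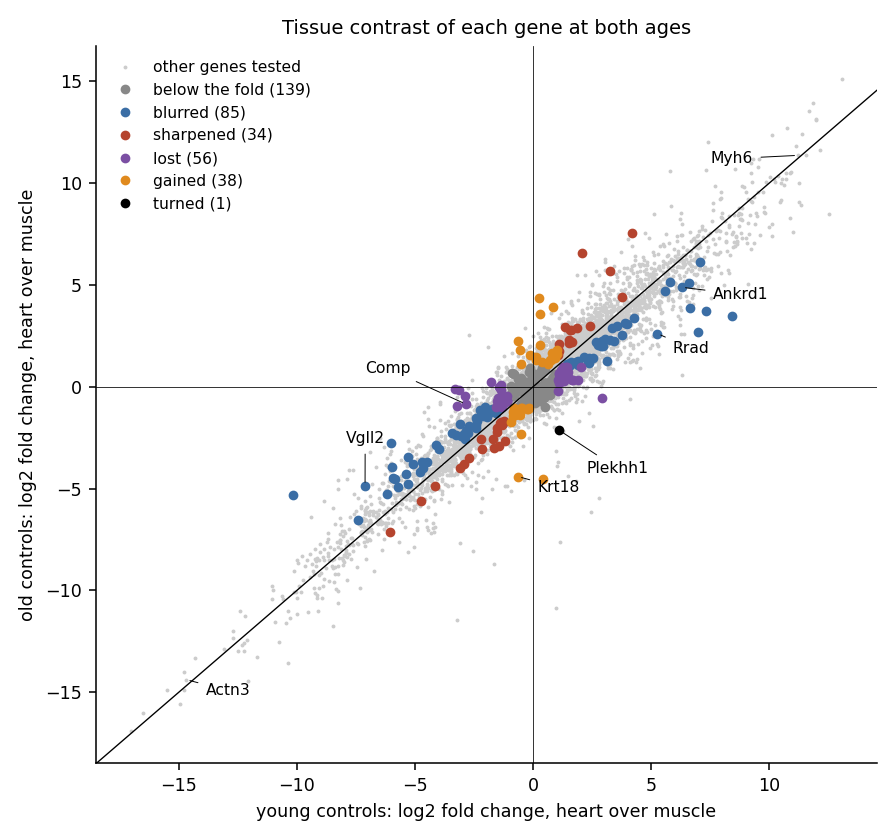
Log2 fold change of heart over muscle in young controls (horizontal) and old controls (vertical), 1 point per tested gene, coloured by class for the 353 genes whose contrast differed between ages, with the diagonal of equal contrasts. Blurred genes (85) lie between the diagonal and 0, sharpened genes (34) lie beyond the diagonal, and most genes lie along it.

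To see which tissue had moved, old mice were compared with young mice within each tissue on the same genes. In heart 2361 genes (12.8%) were higher in old mice and 1840 (10%) lower, and in muscle 583 (3.17%) were higher and 299 (1.63%) lower. Of the 353 genes, 204 passed this test of age in heart alone, 77 in muscle alone, 42 in both tissues and 30 in neither at an adjusted p under 0.05. A pass in 1 tissue alone does not show that the other tissue stayed the same or moved less. For the 85 blurred genes the counts were 53, 22, 8 and 2, and for the 56 lost genes 33, 12, 9 and 2. Among the 45 blurred muscle genes, 35 had risen in old heart and 10 had fallen in old muscle. Among the 40 blurred heart genes, 24 had fallen in old heart and 20 had risen in old muscle. Among lost contrasts, 20 of 26 muscle genes had risen and 22 of 30 heart genes had fallen in old heart. These directions largely follow from the sorting into classes, and the test of age called more of all genes in heart than in muscle.

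**Figure D3:**
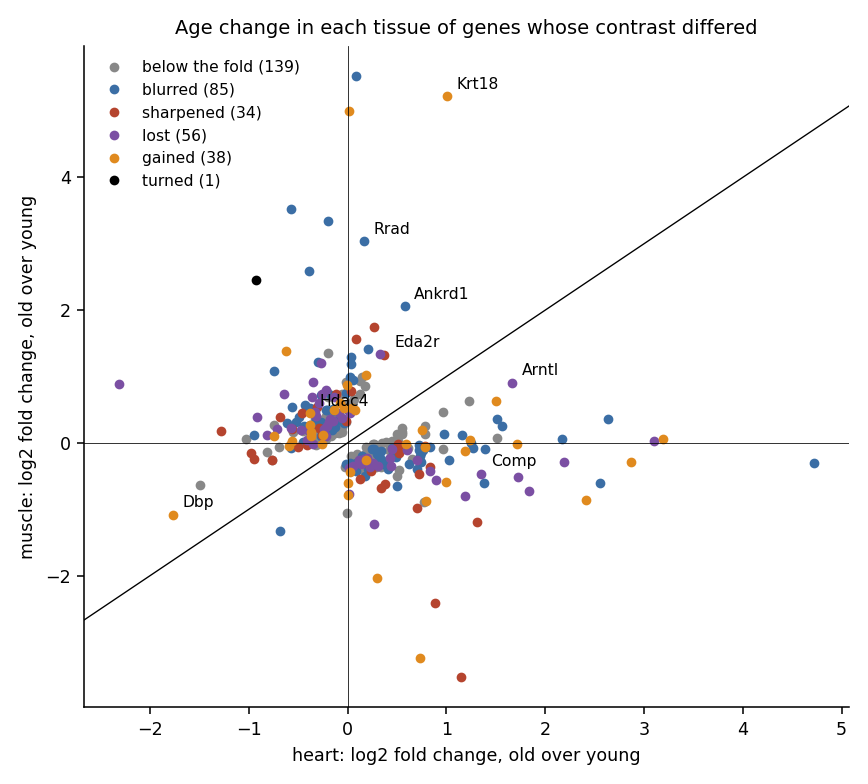
Log2 fold change of old over young in heart (horizontal) and in muscle (vertical) for the 353 genes whose tissue contrast differed between ages, coloured by class, with the diagonal of equal change. Points right of the diagonal rose more in heart than in muscle: of the genes shown, 204 passed the test in heart alone and 77 in muscle alone.

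Muscle genes that were blurred had mostly risen in old heart. Those described first were picked because their per-animal ratios did not overlap between ages, so that separation follows from the choice. The same holds for each gene below that was named by this rule. Prkcq, which encodes protein kinase C theta, had 384 to 912 (median 549) normalized counts in old hearts and 201 to 333 (median 237) in young hearts, where a normalized count is the count scaled by the RLE factor to a library of common size. In muscle it had 3893 to 4585 (median 4109) in old and 3789 to 4806 (median 4332) in young mice. Old and young hearts did not overlap while the muscles did, and the ratio of heart to muscle of all 10 old animals lay above that of every young animal. Its contrast was -2.88 ± 0.11 (SE) in old and -4.10 ± 0.12 in young mice, a difference of 1.22 ± 0.15 (edgeR with Benjamini-Hochberg adjustment, adjusted p = 0.000338). Tfrc, the transferrin receptor that takes up iron, was blurred by 1.11 ± 0.13 (adjusted p = 0.000338) from -2.25 to -1.14. Its old hearts held 1123 to 3309 (median 2061) normalized counts against 929 to 1611 (median 1451) in young hearts, and all 10 old ratios again lay above every young one. Serpine2, an inhibitor of serine proteases, rose in heart by 0.41 (adjusted p = 0.000474) and fell in muscle by 0.39 on the log2 scale (adjusted p = 0.00644), which brought its contrast from -2.71 to -1.92 with 10 of 10 old ratios above all young ones.

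Further muscle genes whose ratios overlapped between the ages, named after their values were seen as the largest differences, showed the same heart-sided rise. Vgll2, a skeletal muscle cofactor of TEAD factors, had 31.4 to 199 (median 94.3) normalized counts in old hearts and 0 to 31.6 (median 15.6) in young hearts, with 1427 to 4112 (median 2345) in old and 513 to 3491 (median 2072) in young muscles. Its level in heart rose by 2.64 ± 0.37 on the log2 scale (adjusted p = 3.04e-05) while the change in muscle was 0.36 ± 0.24 (adjusted p = 0.462), and the contrast went from -7.11 to -4.88. Kcnc1, the potassium channel Kv3.1, had 106 to 250.1 (median 167) in old hearts and 50.1 to 93.8 (median 66) in young hearts, which did not overlap. Its contrast was -5.84 in young and -4.52 in old mice (difference 1.32 ± 0.18, adjusted p = 0.000917). Ano5, whose loss causes a limb-girdle muscular dystrophy, moved from -5.08 to -3.78 (adjusted p = 0.000338) with 6 of 10 old ratios above every young ratio. Atp2b3, a plasma membrane calcium pump, moved from -5.95 to -4.47 (adjusted p = 0.00404, and 0.142 in a fit with no separate tissue effects for the sexes), and Ptx3, a soluble pattern recognition protein, from -5.32 to -3.45 (adjusted p = 0.0137). Tnc, the matrix protein tenascin C, moved from -3.10 to -1.82 (adjusted p = 0.0255, and 0.0603 without the 2 animals with the most Actn3 in heart).

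Since old hearts held more of these muscle genes, the Actn3 values are given beside them. In old hearts Actn3 was at most 0.110% of the level in the same animal's muscle (median 0.00428%). The median of Kcnc1 was 167 normalized counts in old hearts and 3634 in old muscles. The part of muscle RNA in these heart values was not tested beyond leaving out the 2 animals with the most of it. Prkcq, Vgll2, Kcnc1 and Ano5 kept adjusted p-values of 0.00264, 0.0291, 0.00393 and 0.0036 for the difference with these animals left out.

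Of the heart genes with the largest blurring, several had risen in old muscle. Rrad (ENSMUSG00000031880, chr8:104628070-104631327 on GRCm38.p6, minus strand) encodes a small GTPase that restrains L-type calcium channels. It had 239 to 2329 (median 727) normalized counts in old muscles and 53.7 to 210.3 (median 113) in young muscles, against 3566 to 6730.4 (median 4859) in old hearts and 3029 to 5668 (median 4675) in young hearts. Every old muscle held more than every young muscle, and the hearts overlapped. The contrast shrank from 5.25 ± 0.36 to 2.61 ± 0.29, a difference of -2.64 ± 0.43 (adjusted p = 0.00261), with 9 of 10 old ratios below every young ratio. Zfp697 moved from 3.44 to 2.22 (adjusted p = 0.00699, and 0.0973 with no separate tissue effects for the sexes), with a rise of 1.29 in muscle (adjusted p = 0.00848) and a change of 0.032 in heart (adjusted p = 0.866).

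In some heart genes the heart fell as well. Fam174b moved from 6.61 to 5.09 (adjusted p = 0.00577) as muscle rose by 1.21 (adjusted p = 0.0318) and heart changed by -0.30 (adjusted p = 0.00145). Slc38a1, an amino acid transporter, moved from 3.14 to 1.29 (adjusted p = 0.0143), with a change of -0.74 in heart (adjusted p = 0.000426) and 1.08 in muscle (adjusted p = 0.133). Ctnna1, the alpha catenin that ties cadherins to actin at cell junctions, had a smaller change and was picked because its ratios did not overlap. It had 2949.6 to 3891 (median 3326) normalized counts in old and 2334 to 3229 (median 2475) in young muscles and 14038 to 16833 (median 15383) in old and 14911 to 18172 (median 16794) in young hearts, and all 10 old ratios (1.93 to 2.39) lay below all 9 young ones (2.47 to 2.83). Its contrast went from 2.65 ± 0.056 to 2.20 ± 0.052 (adjusted p = 0.00237).

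Lost contrasts ran in both directions, 30 heart genes and 26 muscle genes of young mice. Sh2d4a had 252 to 525 (median 371) normalized counts in old hearts and 349 to 574 (median 391) in old muscles, so old tissues overlapped, against 367 to 691 (median 444) and 124 to 299.7 (median 215) in young mice, where they did not. Its contrast went from 1.05 ± 0.12 to -0.22 ± 0.11 (difference -1.27 ± 0.16, adjusted p = 0.000338), with all 10 old ratios below every young ratio. Gca, the calcium-binding protein grancalcin, fell from 1.26 to 0.73 (adjusted p = 0.00294) with the same separation of ratios. Hcn4, the pacemaker channel, had 252 to 468 (median 329) normalized counts in old hearts and 296 to 542 (median 397) in young hearts, and 152 to 368 (median 266) in old and 74.1 to 267 (median 138) in young muscles. The contrast of Hcn4 went from 1.48 ± 0.15 to 0.49 ± 0.14 (adjusted p = 0.0112), with a rise of 0.74 in muscle (adjusted p = 0.014) and a change of -0.26 in heart (adjusted p = 0.138). Nabp1, a single-stranded DNA binding protein, was lost from 1.11 to 0.17 (adjusted p = 0.0066). Sik1, a salt-inducible kinase, went from 1.33 to 0.44 (adjusted p = 0.0384), but its adjusted p was 0.0793 without young female replicate 3.

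Among muscle genes whose contrast was lost, Yars, the tyrosyl-tRNA synthetase, went from -1.28 ± 0.052 to -0.87 ± 0.049 (adjusted p = 0.00404) and Lgr4, a receptor for R-spondins, from -1.09 ± 0.044 to -0.70 ± 0.042 (adjusted p = 0.00134). For both, all 10 old ratios lay above the 9 young ones. Both contrasts remained in the same direction in old mice below the 1 log2 unit of the call, so the loss is one of size and not of direction. Ifit3b, an interferon-induced gene whose reads may be split with its near copy Ifit3, had 106 to 348 (median 189) normalized counts in old hearts and 52.8 to 138 (median 107) in young hearts, and 83.1 to 309.5 (median 174) in old and 149.6 to 345 (median 246) in young muscles. Its contrast went from -1.36 ± 0.16 to 0.096 ± 0.15 (adjusted p = 0.00134) as heart rose (0.90, adjusted p = 0.00194) and muscle fell (-0.55, adjusted p = 0.0492). Cbr2, a carbonyl reductase, went from -1.49 to -0.57 (adjusted p = 0.00605, and 0.309 with no separate tissue effects for the sexes). Gpx3, a secreted glutathione peroxidase, went from -1.29 to -0.58 (adjusted p = 0.0422, and 0.0988 without young female replicate 3).

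Among gained contrasts of genes whose mean log2 CPM reached 2, the largest difference was that of Krt18 (ENSMUSG00000023043, chr15:102028180-102032027 on GRCm38.p6, plus strand), a keratin of simple epithelia. Old muscles held 70 to 1764 (median 284) normalized counts and young muscles 2.42 to 22.6 (median 15), while old hearts held 6.35 to 58 (median 14.5) and young hearts 2.11 to 21.6 (median 7.65). Every old muscle lay above every young muscle, and the hearts were low at both ages. The contrast was -0.65 ± 0.46 in young and -4.41 ± 0.33 in old mice (difference -3.76 ± 0.58, adjusted p = 0.00147), with all 10 old ratios below every young ratio. Plekhh1 was the one gene that turned: 59.6 to 169 (median 79.3) normalized counts in young hearts against 23.6 to 70 (median 38.7) in young muscles became 25.7 to 67.4 (median 49.3) in old hearts against 103 to 625 (median 172) in old muscles. Its contrast went from 1.09 ± 0.30 to -2.13 ± 0.28 (adjusted p = 0.000338), with a change of -0.93 in heart and a rise of 2.45 in muscle, and the ratios of the ages did not overlap. Plekhh1 had a mean log2 CPM under 2 and is named because it was the only gene of its class.

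Contrasts towards heart were gained for Olfml2b, an extracellular olfactomedin-like protein, which went from 0.11 ± 0.18 to 1.45 ± 0.18 (adjusted p = 0.00763). Old hearts held 328 to 1252 (median 601) normalized counts of it and young hearts 177 to 536 (median 227), with muscles of 119.7 to 497 (median 219) and 134 to 363 (median 260.5). Lgals3bp, a secreted galectin-3 binding protein, went from 0.76 to 1.33 (adjusted p = 0.00941) with 8 of 10 old ratios above every young ratio. Among sharpened contrasts, Eda2r, the receptor for ectodysplasin A2, had 1684 to 4722 (median 2579.5) normalized counts in old muscles and 949 to 1321 (median 1039.9) in young muscles, which did not overlap. Eda2r also rose in heart (0.37, adjusted p = 0.00345), but by less than in muscle (1.33, adjusted p = 9.31e-05), and its contrast grew from -3.08 ± 0.11 to -4.0 ± 0.10 (adjusted p = 0.0014). Mamstr, a skeletal muscle coactivator of MEF2, went from -2.18 to -3.08 (adjusted p = 0.0074) as heart changed by -0.46 and muscle by 0.46. Sh3kbp1, an adaptor of receptor endocytosis, sharpened towards heart from 1.51 to 2.16 (adjusted p = 0.00237), whereas Mycn (adjusted p = 0.0253) and Vcam1, an adhesion molecule of activated endothelium (adjusted p = 0.0361), passed with all animals and gave 0.0548 and 0.0773 without young female replicate 3.

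**Figure D4:**
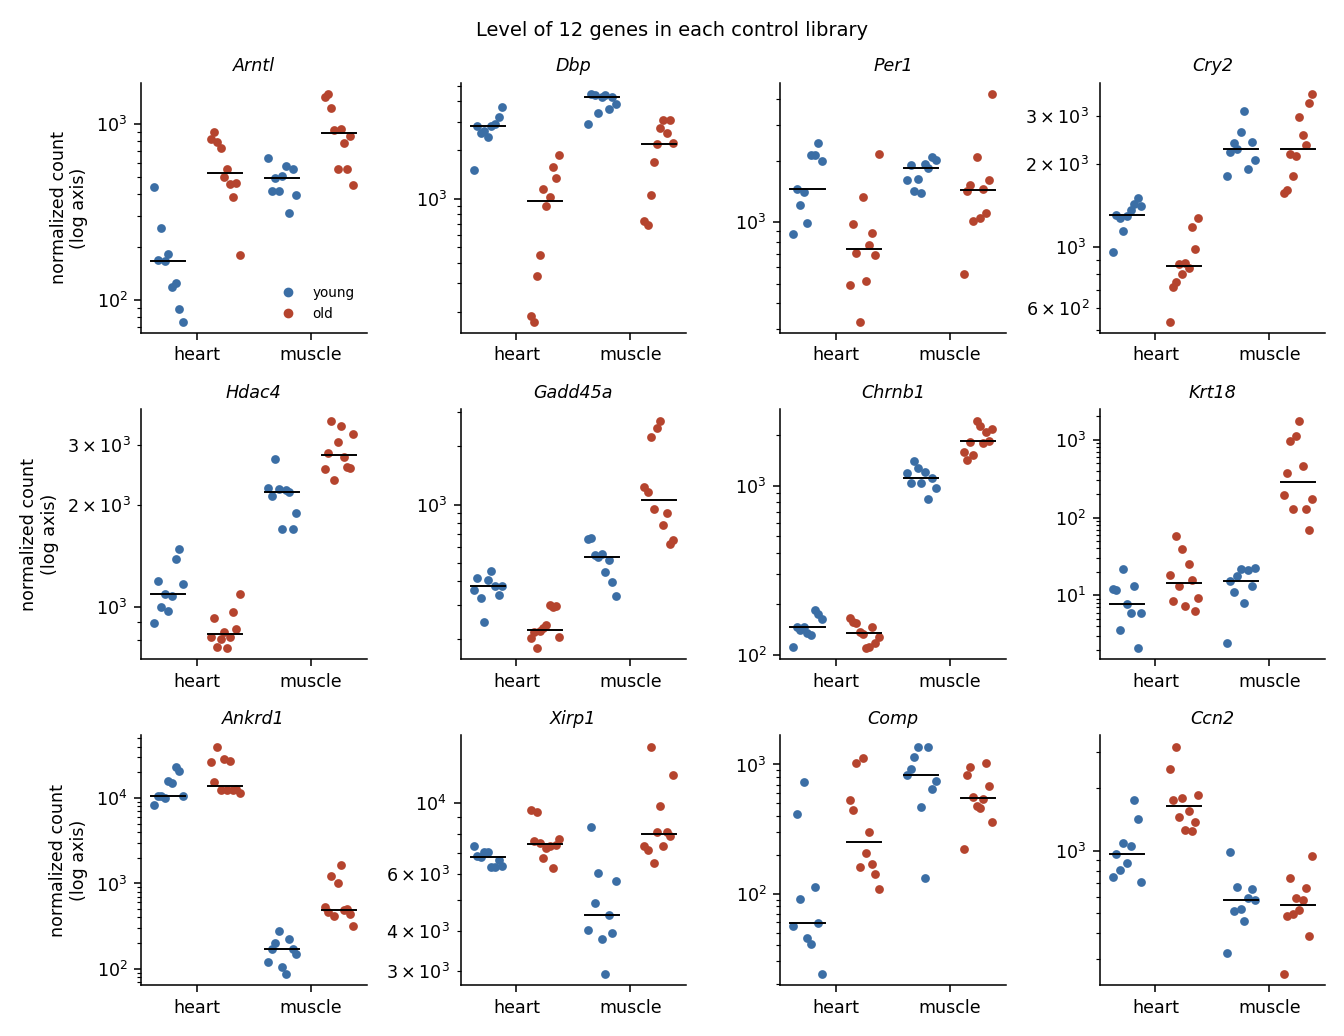
Normalized count (log axis) of 12 genes in each control library, heart on the left and muscle on the right of each panel, young in blue and old in red, with a line at the median. Krt18 separates by age in muscle, Gadd45a is mostly higher in old muscles with some overlap, the medians of Cry2 and Per1 are lower in old hearts, and that of Arntl is higher in both old tissues.

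The gene lists describe where the contrasts stood and moved, as counts and medians beside those of all genes (median contrast 0.086 in old and 0.096 in young mice on the log2 scale). Counts of changed contrasts are given beside the 1.92% of all genes that changed. Of all genes, 21.8% were higher in old heart and 14.7% in old muscle. Of 17 fast fibre sarcomere genes, 17 were higher in old muscle (median -12.33, -12.25 in young) and 1 contrast changed, that of Myot, a Z-disc protein, which was blurred from -4.49 to -3.68 (adjusted p = 0.00134). Myot rose in heart, from 1285 to 2269 (median 1725) to 2212 to 4606 (median 2926) normalized counts (adjusted p = 1.19e-05). Of 12 heart sarcomere genes, 8 were higher in old heart (median 4.39, 4.98 in young). The 1 that changed, Myom2, an M-band protein more abundant in muscle here, went from -0.68 to -1.35 (adjusted p = 0.032, and 0.0573 without young female replicate 3). None of 14 heart and 18 muscle transcription factors changed contrast, with 13 of the former higher in old heart and 17 of the latter higher in old muscle. The HOX genes, which mark position along the body, were mostly muscle genes: 25 of 28 were higher in old muscle, and 0 contrasts passed the test. The 12 genes shared by heart and slow fibres (9 higher in old heart), the 6 slow fibre genes (5 higher in old muscle) and the 12 muscle calcium genes (11 higher in old muscle) also had 0.

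Channels and calcium genes moved singly. Of 18 heart electrical genes, 14 were higher in old heart, and the pair of pacemaker channels went opposite ways: Hcn4 was lost and Hcn2 sharpened from 3.75 to 4.41 (adjusted p = 0.0157). Of 7 muscle electrical genes, Kcnc1 was blurred and Clcn1, the chloride channel that steadies the resting fibre membrane, sharpened from -4.76 to -5.60 (adjusted p = 0.00803). Clcn1 moved in heart, where it fell by 0.97 on the log2 scale (adjusted p = 0.000111). Of 10 heart calcium genes, Camk2d, the main cardiac calcium/calmodulin-dependent kinase, fell below the fold of the call, from 1.15 to 0.66 (adjusted p = 0.00697). Camk2d changed by -0.15 in heart (adjusted p = 0.0124) and rose by 0.34 in muscle (adjusted p = 0.0182).

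**Figure D5:**
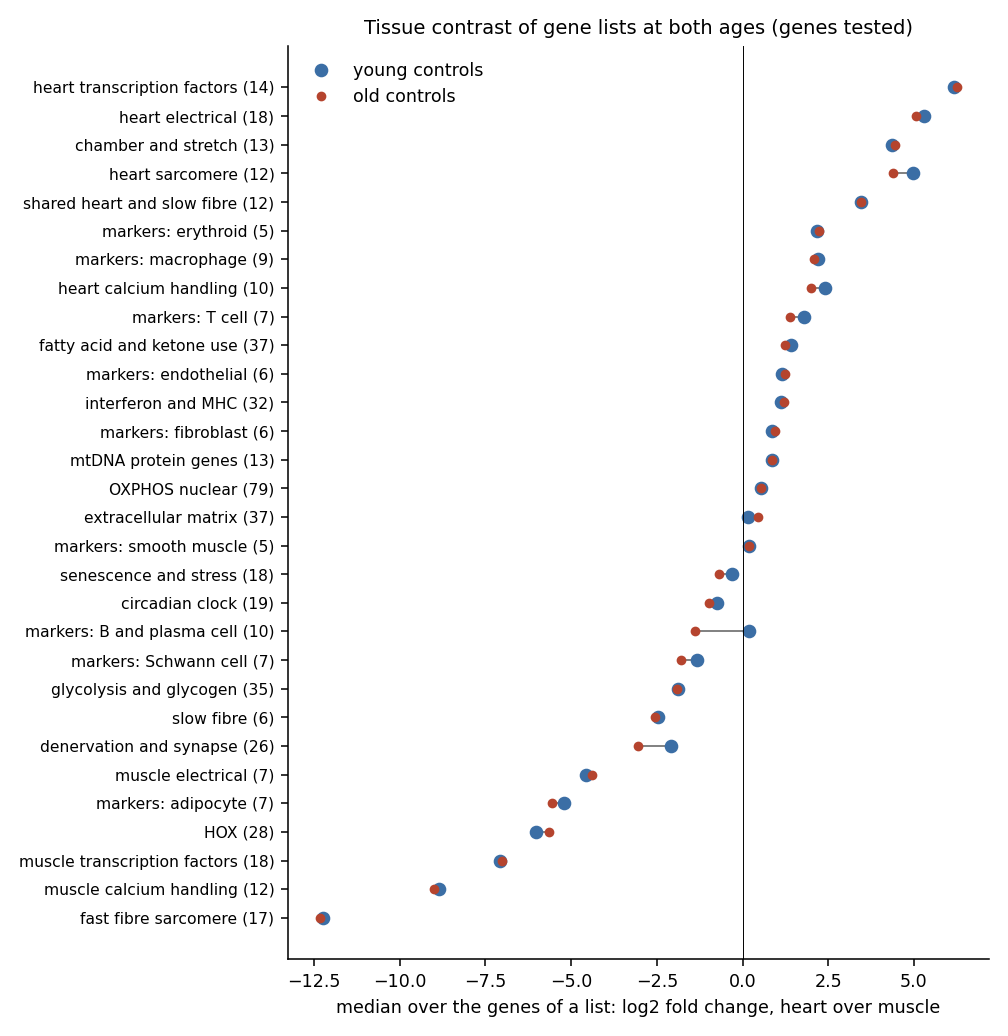
Median log2 fold change of heart over muscle over the tested genes of each list with at least 5 tested genes (number in brackets), young in blue and old in red. Denervation and synapse genes move from -2.09 to -3.06, B and plasma cell markers from 0.20 to -1.39, and the other lists shown move by less.

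Denervation and synapse genes stood further towards muscle in old mice. Of 26 tested, 21 were higher in old muscle and 16 in young muscle, the median contrast was -3.06 against -2.09, and 23 of 26 differences lay below 0 (8876 of 18397 over all genes). The difference itself passed for 3 genes, beside 1.92% of all genes, all 3 below 0, and 3 of them passed without the 2 animals with the most Actn3 in heart. Within muscle, 13 were higher and 1 lower in old mice, beside 3.17% and 1.63% of all genes, and in heart 2 were higher and 6 lower, beside 12.8% and 10%. Gadd45a, a growth arrest and DNA damage gene, had 628 to 2722 (median 1054) normalized counts in old and 335 to 668 (median 535) in young muscles, and 181 to 302 (median 225) in old and 247 to 454 (median 376) in young hearts. It rose in muscle and fell in heart, and its contrast went from -0.52 ± 0.18 to -2.34 ± 0.18 (adjusted p = 0.000917), with 9 of 10 old ratios below every young ratio. Hdac4, a histone deacetylase that fibres turn on after nerve loss, had 2365 to 3542 (median 2808) in old and 1694 to 2736 (median 2184) in young muscles. In hearts Hdac4 had 758 to 1095 (median 830.3) in old and 896 to 1480.4 (median 1093) in young mice. Its contrast towards muscle grew past the fold of the call, from -0.92 ± 0.089 to -1.74 ± 0.086 (adjusted p = 0.00134). Chrnb1, the beta subunit of the muscle acetylcholine receptor, had 1412 to 2421 (median 1828) in old and 833 to 1404 (median 1107) in young muscles, which did not overlap, and its contrast sharpened from -2.93 ± 0.10 to -3.79 ± 0.10 (adjusted p = 0.00237).

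Other synapse genes rose in old muscle without a contrast past the test, and several of them had few or no counts in heart. Myog, the myogenic factor that nerve loss turns on, had 151 to 1209 (median 320.2) normalized counts in old and 67.1 to 176 (median 121) in young muscles (age change 1.84 ± 0.31, adjusted p = 0.00261) and 0 in all old hearts. Chrna1, the alpha subunit, had 839 to 2022 (median 1238) in old and 687 to 961 (median 763) in young muscles (adjusted p = 0.00543), and Chrng, the fetal gamma subunit, had 8.63 to 135 (median 32.6) and 0 to 9.61 (median 2.65) (adjusted p = 0.0036). Runx1, a transcription factor of denervated fibres, rose in both tissues, by 2.35 in muscle and 0.99 in heart, and its contrast went from -0.48 to -1.66 (adjusted p = 0.0543). Chrne, the adult epsilon subunit, did not pass in muscle (0.12 ± 0.12, adjusted p = 0.623). Myogenic factors such as Myog bind E-boxes, and the 250 bases before a RefSeq start (GRCm38.p6, gene strand) are shown for 2 receptor subunit genes that rose with Myog in old muscle. Capitals mark CAGCTG, which reads the same on both strands and is found in 13% of 32851 promoters of this length, and in 5 of the 18 promoters available for the 26 genes of the list. It is 1 form of the general E-box CANNTG, found in 66.2% of these promoters.
Chrna1, chr2:73580339-73580588, minus strand: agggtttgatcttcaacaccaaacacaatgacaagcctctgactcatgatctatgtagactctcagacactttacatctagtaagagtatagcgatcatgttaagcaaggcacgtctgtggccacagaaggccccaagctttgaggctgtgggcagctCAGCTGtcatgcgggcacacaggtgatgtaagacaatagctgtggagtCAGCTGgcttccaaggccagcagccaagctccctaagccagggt
Chrng, chr1:87205561-87205810, plus strand: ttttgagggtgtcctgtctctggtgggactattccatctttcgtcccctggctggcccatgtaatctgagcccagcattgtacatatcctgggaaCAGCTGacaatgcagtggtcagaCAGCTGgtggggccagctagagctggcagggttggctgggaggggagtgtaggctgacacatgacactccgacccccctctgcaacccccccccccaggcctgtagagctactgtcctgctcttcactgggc
Both windows hold CAGCTG at 2 places, and the window of Chrnb1 holds none, with 3 matches of CANNTG in other forms. A match describes the letters and is not a measured site.

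Clock genes had 7 changed contrasts among 19 tested, of which 6 lay below 0 and 1 above, beside 1.92% of all genes, and 4 of the 7 passed without the 2 animals with the most Actn3 in heart. The median contrast was -0.98 in old and -0.73 in young mice. Since the hour of collection is not given, hour and age cannot be told apart in the clock genes. Within heart 5 clock genes were higher and 12 lower in old mice, beside 12.8% and 10% of all genes. Within muscle 4 were higher and 8 lower, beside 3.17% and 1.63%. Arntl, the activator that pairs with CLOCK, had 179.6 to 908 (median 529.7) normalized counts in old and 75 to 439 (median 165) in young hearts, and 451 to 1478 (median 892) in old and 312 to 640.2 (median 493) in young muscles. It rose more in heart (1.67, adjusted p = 8.36e-06) than in muscle (0.90, adjusted p = 0.00736), so that its contrast towards muscle was lost, from -1.51 ± 0.12 to -0.69 ± 0.11 (adjusted p = 0.0109, 0.0506 with no separate tissue effects for the sexes and 0.189 without pairing). Clock itself rose in both tissues, by 0.43 and 0.47, with a difference of contrasts of -0.035 ± 0.075 (adjusted p = 0.9).

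Output genes and repressors of the clock had differences below 0. Dbp, a D-box activator, had 174 to 1874 (median 965) normalized counts in old and 1507 to 3674 (median 2813) in young hearts, and 685 to 3063 (median 2192) in old and 2909.8 to 4423 (median 4251) in young muscles. Old hearts were the lowest and spread over a wide range, 174 to 1152 in females and 906 to 1874 in males. The contrast of Dbp was gained, from -0.57 ± 0.12 to -1.37 ± 0.12 (adjusted p = 0.0173, and 0.0595 without the 2 animals). Per3, a repressor, had 234 to 861 (median 379) in old and 561 to 1825 (median 1286) in young hearts, and its contrast went from 0.065 ± 0.12 to -0.80 ± 0.12 (adjusted p = 0.0078). Nr1d2, the repressor REV-ERB beta, had 1547 to 3737 (median 2428) in old and 3359 to 4512 (median 4203) in young hearts, went from -0.34 ± 0.062 to -0.87 ± 0.059 (adjusted p = 0.00237) and had 9 of 10 old ratios below every young ratio. Cry2, a repressor of CLOCK and ARNTL, had 535 to 1272 (median 850.2) in old and 955 to 1508 (median 1308) in young hearts and 1568 to 3592 (median 2266) in old and 1818 to 3116 (median 2266) in young muscles. Its old and young muscles overlapped, and the contrast towards muscle grew past the fold of the call, from -0.83 ± 0.083 to -1.44 ± 0.079 (adjusted p = 0.00697).

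Per1 and Tef passed with all animals and not without the 2 with the most Actn3 in heart. Per1, a repressor, went from -0.20 to -0.85 (adjusted p = 0.0381, and 0.121 without them), and Tef, a D-box activator, from -1.51 to -2.03 (adjusted p = 0.0399, and 0.118). Neither Per2 (difference -0.34 ± 0.19, adjusted p = 0.453) nor Nr1d1 (-0.49 ± 0.18, adjusted p = 0.201) passed. Since these genes are tied together by short promoter elements, the 250 bases before a RefSeq start (GRCm38.p6, gene strand) are shown for 4 of those whose contrast moved below 0. Capitals mark CACGTG, the E-box of CLOCK and ARNTL (6.02% of 32851 promoters), in Per1 and Tef, TTATGTAA, the D-box of DBP and TEF (0.819%), in Per3, and AGGTCA, the half-site of REV-ERB and ROR proteins (14%), in Nr1d2. Each was searched on both strands, and CACGTG is a form of CANNTG.
Per1, chr11:69098699-69098948, plus strand: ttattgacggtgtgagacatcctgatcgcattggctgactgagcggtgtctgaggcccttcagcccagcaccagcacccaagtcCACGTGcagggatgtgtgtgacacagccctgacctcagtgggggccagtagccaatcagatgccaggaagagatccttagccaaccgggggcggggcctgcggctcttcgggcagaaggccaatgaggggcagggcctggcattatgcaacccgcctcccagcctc
Tef, chr15:81802423-81802672, plus strand: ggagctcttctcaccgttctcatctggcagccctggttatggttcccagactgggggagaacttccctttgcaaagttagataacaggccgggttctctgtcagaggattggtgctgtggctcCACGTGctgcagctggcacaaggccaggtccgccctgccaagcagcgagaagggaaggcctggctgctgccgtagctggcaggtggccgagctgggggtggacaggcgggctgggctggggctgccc
Per3, chr4:151044666-151044915, minus strand: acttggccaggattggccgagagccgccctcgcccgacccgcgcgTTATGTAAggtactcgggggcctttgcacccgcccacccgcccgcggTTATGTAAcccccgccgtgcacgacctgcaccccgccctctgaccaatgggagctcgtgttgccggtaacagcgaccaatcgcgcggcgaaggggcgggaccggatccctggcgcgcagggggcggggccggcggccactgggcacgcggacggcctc
Nr1d2, chr14:18239107-18239356, minus strand: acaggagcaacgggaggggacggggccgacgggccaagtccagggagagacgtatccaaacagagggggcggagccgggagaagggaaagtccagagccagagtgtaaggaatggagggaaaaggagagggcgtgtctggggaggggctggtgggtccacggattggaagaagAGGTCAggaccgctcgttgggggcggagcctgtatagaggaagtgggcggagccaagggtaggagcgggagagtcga
The Per3 window holds TTATGTAA at 2 places, and 5 of the 16 clock genes with a promoter in the table hold CACGTG. Per1 has another RefSeq start, whose window (chr11:69099902-69100151) holds no CACGTG. In the windows of Dbp and Cry2 there was also no CACGTG, and in that of Arntl no AGGTCA, which says only that these letters are not in these 250 bases.

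Several stretch and matrix genes rose in old hearts, and 2 of 13 chamber and stretch genes and 2 of 37 matrix genes changed contrast, beside 1.92% of all genes. Ankrd1, a stretch-induced nuclear cofactor and titin partner of heart, had 11356 to 39762 (median 13931) normalized counts in old and 8382 to 23004 (median 10611) in young hearts, with wide overlap (age change 0.58 ± 0.20, adjusted p = 0.04). In muscle it had 316 to 1654 (median 493) in old and 87.3 to 274 (median 169) in young mice, which did not overlap. Its contrast was blurred from 6.29 ± 0.24 to 4.88 ± 0.21 (adjusted p = 0.00836, and 0.0082 without the 2 animals with the most Actn3 in heart). Xirp1, the actin-binding Xin protein of stressed fibres, went from 0.50 to -0.18 (adjusted p = 0.0292, and 0.063 without them). Of the 13 chamber and stretch genes, 6 rose in old hearts (12.8% of all genes), among them Nppb, the B-type natriuretic peptide, with 4924 to 20651 (median 7153) in old and 2076 to 4796 (median 2873) in young hearts (adjusted p = 2.24e-05). The 250 bases before the RefSeq start of Ankrd1 (GRCm38.p6, gene strand) are shown since its level passed the test of age in both tissues, with capitals on GGAATG, the core of the M-CAT element bound by TEAD factors, searched on both strands and found in 12.6% of 32851 promoters.
Ankrd1, chr19:36119845-36120094, minus strand: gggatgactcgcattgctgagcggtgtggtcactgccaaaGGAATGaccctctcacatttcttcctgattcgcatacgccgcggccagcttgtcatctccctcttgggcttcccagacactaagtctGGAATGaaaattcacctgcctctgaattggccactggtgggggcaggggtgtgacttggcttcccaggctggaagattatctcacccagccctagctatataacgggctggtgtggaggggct
The window holds GGAATG at 2 places.

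Of 37 extracellular matrix genes, 21 were higher in old than in young hearts and 2 in muscle (12.8% and 3.17% of all genes), and 33 of 37 differences of contrast lay above 0 (9521 of 18397 over all genes). The median contrast moved from 0.16 to 0.45. Comp, cartilage oligomeric matrix protein, had 109.8 to 1117 (median 253) normalized counts in old and 24 to 738 (median 59.2) in young hearts, and 221 to 1031 (median 553) in old and 132 to 1370.3 (median 823) in young muscles, with wide overlap. Its contrast was lost from -2.84 ± 0.37 to -0.86 ± 0.32 (adjusted p = 0.0367), and Ccn2, connective tissue growth factor, was gained from 0.81 ± 0.16 to 1.66 ± 0.15 (adjusted p = 0.0402). These calls were lost in 12 and 10 of 19 fits with 1 animal left out: without young female replicate 3 the adjusted p-values were 0.0813 and 0.0714, and 0 of the 2 passed without both animals. Col1a1, the main collagen of scar, had a difference of 0.71 ± 0.32 (adjusted p = 0.317).

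Many respiratory chain and fatty acid genes were lower in old hearts, without a change of contrast past the test. Of 79 nuclear genes of the respiratory chain, 32 were lower in old hearts and 7 in old muscles (10% and 1.63% of all genes), and the median contrast was 0.54 in old and 0.53 in young mice. Of 13 protein genes of mitochondrial DNA, 11 were lower in old hearts and 0 in old muscles, with median age changes of -0.24 and -0.23. Of 37 genes of fatty acid and ketone use, 27 were higher in old heart and 30 in young heart than in muscle (21.8% and 21.5% of all genes). Against young hearts, 28 of the 37 were lower in old hearts (10% of all genes). For 30 of them the difference of contrast lay below 0 (8876 of 18397 over all genes). Of 35 glycolysis and glycogen genes, 22 were higher in old muscle than in old heart (14.7% of all genes). With age, 13 were higher and 10 lower in hearts (12.8% and 10% of all genes). In these 4 lists 0 contrasts passed the test of the difference.

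Several stress and immune genes were higher in both tissues of old mice. Cdkn1a, the cell cycle inhibitor p21, had 453 to 1522 (median 1161) normalized counts in old and 207 to 479 (median 266) in young hearts, and 1305 to 4722 (median 1908) in old and 169 to 831 (median 506) in young muscles (adjusted p = 2.76e-08 and 0.000106). Its contrast of -1.14 in old and -0.67 in young mice did not pass the test of a difference (adjusted p = 0.425). Of 18 senescence and stress genes, 9 were higher in old hearts and 6 in old muscles, beside 12.8% and 3.17% of all genes. Gadd45a and Atf4 changed contrast, and Atf4, the activator of the integrated stress response, was blurred from -1.67 to -1.21 (adjusted p = 0.0127). Of 32 interferon and MHC genes, 26 were higher in old hearts and 8 in old muscles (12.8% and 3.17% of all genes), 23 were higher in old heart than in old muscle (21.8%), and 0 contrasts changed.

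Levels of several immune cell markers were higher in old mice, where 12.8% of all genes rose in heart and 3.17% in muscle. Marker lists of other cell types had 0 changed contrasts, beside 1.92% of all genes. Of 9 macrophage markers, 8 rose in heart and 5 in muscle, and of 7 T cell markers 5 and 1. B and plasma cell markers (10 genes) had 6 higher in old muscle and a median contrast of -1.39 in old against 0.20 in young mice. Their summed level was 72.0 to 2375 CPM in old muscles, 41.6 to 442.7 in young muscles and 9.18 to 31.1 in old hearts, and 0 of the 10 genes were at 0 in all old muscles. The part of these cells in the contrasts that changed was not tested. Adipocyte (6 of 7), Schwann cell (6 of 7), tenocyte (3 of 4), mesothelial (2 of 3) and satellite cell markers (4 of 4) had members called higher in old muscle. For adipocyte and mesothelial markers, 1 each was called higher in old heart. Their summed levels were also higher in old hearts (medians 387 and 7.51 CPM) than in old muscles (176 and 1.11). Summed Schwann cell, tenocyte and satellite cell markers were higher in old muscles (medians 152, 154 and 9.45 CPM) than in old hearts (25.3, 10.1 and 0). Endothelial (5 of 6), fibroblast (3 of 6) and erythroid markers (5 of 5) had members called higher in old heart, and 0 of 5 smooth muscle markers were called in either direction.

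Several of the differences between ages named above lay close to the threshold. Of 19 fits with 1 animal left out, the call was lost in 13 for Vcam1, 13 for Gpx3, 13 for Tef, 12 for Comp, 12 for Per1, 11 for Sik1, 10 for Ccn2, 9 for Xirp1, 8 for Myom2 and 2 for Mycn, and in 0 for the other called genes described. Without the pairing of heart and muscle the adjusted p was 0.267 for Hcn2, 0.106 for Lgals3bp, 0.0806 for Per3, 0.319 for Dbp and 0.414 for Per1. It was 0.218 for Vcam1, 0.078 for Mycn, 0.0805 for Comp, 0.0961 for Ccn2 and 0.0698 for Sik1. With no separate tissue effects for the sexes it was 0.166 for Mycn, 0.0962 for Ccn2, 0.0907 for Comp, 0.0662 for Myom2, 0.0623 for Tef and 0.0592 for Gpx3.

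The same difference was measured in the 20 ELAM mice, which share no animal with the controls but were treated and so are not plain replicates. Of the 18397 genes, 211 (1.15%) passed there, and 181 without the 2 mice whose sex-linked genes went against their label. Of the 353 genes called in controls, 343 had the same direction in ELAM mice, 79 also passed the test in that direction and 0 passed in the other. Without those 2 mice the counts were 332, 64 and 0. The share of all tested genes with the same direction in both sets of mice is not given here. By class, the genes that passed in both numbered 19 of 85 blurred, 9 of 34 sharpened, 14 of 56 lost and 13 of 38 gained. Prkcq (1.07 ± 0.11, adjusted p = 1.53e-05), Plekhh1 (-3.26 ± 0.44, adjusted p = 0.000472) and Gadd45a (-1.81 ± 0.25, adjusted p = 0.000629) passed in ELAM mice. Vgll2 (3.21 ± 0.42, adjusted p = 0.000428), Arntl (1.21 ± 0.17, adjusted p = 0.000629) and Rrad (-2.03 ± 0.35, adjusted p = 0.00478) passed as well, and these 6 also passed without the 2 mice (adjusted p up to 0.0143). Krt18 (-2.30 ± 0.63, adjusted p = 0.0778), Ankrd1 (-0.77 ± 0.43, adjusted p = 0.453), Chrnb1 (-0.43 ± 0.20, adjusted p = 0.356) and Hcn4 (-0.33 ± 0.27, adjusted p = 0.653) did not pass with or without them. Whether the differences in ELAM mice differ from those in controls was not tested.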

How the data were processed

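Heart and gastrocnemius mRNA of 78 mouse libraries was quantified as counts. Per the labels and the study's methods, the authors prepared polyA libraries, mapped paired reads with STAR 2.7.2b to mm10 (GRCm38.p6) and deposited raw counts per gene. The counting tool and annotation are not given in the sources used here. Of the counts of 1 to 19, 75.9% are even, against 52.0% of those of at least 1000. Of 57010 gene identifiers, 52081 were paired with a symbol (GENCODE M21). The other 4929 took 1.64% of counts.

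The 38 control libraries were analysed with edgeR 4.0.16 (R 4.3.3): 18397 genes that reached 10 reads in 12.5% or more of these libraries, RLE factors, and a quasi-likelihood model with 19 animal coefficients and a tissue effect for each age and sex, averaged over the sexes, with Benjamini-Hochberg adjustment over all genes tested. Tissue contrasts were called at an adjusted p under 0.05 with a log2 fold change of at least 1, and differences between ages at an adjusted p under 0.05. Values of 1 tissue by age came from the same genes and factors, and the ELAM mice were fitted separately. Single values per animal were tested by exact permutation. The analysis was tested on simulated data. Of 100 genes with a log2 change of 1 in the difference between ages, edgeR recovered 91%. Of 100 with a change of 2 it recovered 99%, and 5% of its calls were unchanged genes. The simulated counts had no spread particular to a gene or an animal. Changed genes were drawn from those with higher counts and altered in old heart only, so these shares may not hold for the real libraries. Heart and muscle were paired as the same animal by library name, and each number names 1 animal. The deviations of the paired libraries correlated at -0.036 to 0.203 (median 0.057), above 0.1 in 4 of 19 animals. No 2 libraries of a group were alike beyond sampling noise (lowest chi-square per degree of freedom 5.95 over 72 pairs).

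Genes were named by rule as Myh6 and Actn3, members of 33 gene lists, and, per class and direction, up to 6 genes whose per-animal ratios did not overlap between ages and whose mean log2 CPM reached 2. For the tissue contrast in old mice, the 8 largest in each direction among genes whose mean log2 CPM reached 8 were named. Further genes with large differences, and Plekhh1, were chosen after their values were seen. Members and lists were chosen with earlier results of these data known. Of 537 list entries, 14 were not tested. Promoters were taken from RefSeq, GRCm38.p6.

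Alternatives were TMM, no mitochondrial DNA genes, other filters on low counts, DESeq2 1.42.0, no replicate block, no sex term, halved counts, other fold thresholds and each animal left out. Leaving out young female replicate 3 and old male replicate 2 together was added after seeing the data.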

Additional observations from a re-analysis of the deposited data

Results flagged for a closer look

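In 70 groups of animals examined for 1 that lies apart from the rest, 6 held such an animal, beside about 1 in 20 by chance. All values are log2 ratios of heart to muscle. Krt18 in old male replicate 1 was -7.717, where the nearest old animal had -5.291. Actn3 in old male replicate 2 was -10.3, with the nearest at -13.82, and in young female replicate 3 it was -7.319, with the nearest at -14.23. Myom2 in old female replicate 1 was -2.675 (nearest -1.635), Ankrd1 in old male replicate 1 was 2.915 (nearest 4.617), and Ccn2 in old female replicate 1 was 3.271 (nearest 2.102).

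The age change of the contrast differed between the sexes for 1 gene of 18397, the transcription factor Irx3: -1.47 in females and 0.092 in males, a difference of -1.56 ± 0.24 (SE, edgeR adjusted p = 0.0418). DESeq2 gave an adjusted p of 0.000161 for Irx3 and the fit without pairing 0.134. The call was lost in 15 of 19 fits with 1 animal left out (adjusted p = 0.00613 to 0.193), with 0.145 without young female replicate 3 and 0.127 without old male replicate 2. At an unadjusted p under 0.05, 926 of the 18397 genes passed this test. That is close to the share that this threshold passes when no gene differs, so it does not count real sex differences.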

How the results depend on the processing

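The count of contrasts that differed between ages, 353 with all 19 animals, was 680 with DESeq2, 1018 with no filter on low counts and 178 without young female replicate 3 and old male replicate 2. Without the pairing of heart and muscle (no replicate block) it was 356, of which 270 were shared. Leaving out 1 animal gave 230 to 404 (230 without old female replicate 3, 233 without young female replicate 4). Blurred, sharpened, lost, gained and turned genes numbered 149, 66, 87, 73 and 2 with DESeq2, 327, 168, 119, 121 and 9 with no filter, and 50, 19, 35, 19 and 1 without both animals. With a fold threshold of 0 on the log2 scale, blurred, sharpened and turned became 154, 82 and 21, and with 2 the 5 classes became 51, 13, 22, 23 and 0. Turned genes were 3 without pairing. Leaving out 1 animal gave 59 to 101 blurred, 24 to 41 sharpened, 38 to 69 lost, 25 to 54 gained (25 without old female replicate 3 and without old male replicate 1) and 1 to 3 turned genes. The sex difference was called for 2 genes with DESeq2 and 0 without pairing. DESeq2 called 517 genes in ELAM mice and 1524 in muscle with age, and leaving out 1 animal gave 558 to 1263 in muscle (579 without young female replicate 3, 586 without young female replicate 4, 558 without young male replicate 4). The cause of these shifts was not tested. The difference in tissue distance became 0.0035 with no filter (exact permutation p = 0.905) and stayed between -0.0346 and -0.00149 with 1 animal left out, and that in the mitochondrial gap between -0.877 and -0.257. Tissue contrasts of old mice stayed at 6472 to 6829 genes. Of 70 named genes tested for the age difference, 0 reversed under any alternative run, while 16 lost their call without pairing, 17 without sex and 22 without both animals. Counts and medians of lists carry no test, and depth limits the lowest genes, where the other tissue holds few counts.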
